A study of Mus musculus with 2 samples.

Results

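Immediate early genes and inducible heat shock genes were examined in alveolar macrophages, which live in the airspaces of the lung, as 38 named genes of the 22180 genes with a value. The members were chosen by gene symbol from a list of first-wave transcription factors, their feedback regulators and cytosolic chaperones. Earlier results of these data were known when they were chosen. A gene entered through the array rows annotated to its symbol alone. All 38 members were found, in 44 rows. The study profiled sorted cells of adult C57BL6 littermates on Affymetrix arrays, with 1 array for mice carrying floxed Pikfyve alleles (labelled wild type, WT below) and 1 array for mice carrying the same floxed alleles and LysM-Cre (labelled PIKfyve KO, KO below). LysM-Cre is expressed from the lysozyme 2 locus, so recombination is directed to myeloid cells in general and not to alveolar macrophages alone. Lungs were dissociated with collagenase, cells without DAPI staining that carried Siglec-F and CD11c were sorted, and cDNA amplified from 10 ng of total RNA was hybridised, per the labels' protocols. The number of mice behind each array is not stated in the labels. With 1 array for each genotype no difference between genotypes was tested, and no value below has a replicate error.

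Immediate early genes are transcribed within minutes of a stimulus from promoters whose activating factors are already present in the cell, without new protein synthesis. Growth factors, Toll-like receptor ligands, calcium signals and mechanical or thermal stress act on them through MAP kinases, serum response factor, CREB and NF-kB. Their products include transcription factors of the AP-1, EGR, NR4A and KLF families and a set of inhibitors that end the response by dephosphorylating kinases, trapping NF-kB or destroying unstable mRNAs. Heat shock genes are driven by heat shock factor and encode chaperones that refold damaged proteins. Both groups are known to respond to enzymatic tissue dissociation as well as to stimuli inside the animal.

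Promoter sequences of the members on which the results turn are shown first, to let the control elements be seen beside the values. RefSeq promoter windows (build GRCm38.p6, 250 bases before to 50 after a transcript start) were found for 32 of the 38 members, in 43 windows. The CArG box, the binding element of serum response factor, was present in windows of 2 members, Egr2 and Zfp36. A box further than 250 bases before a start, or in a member without a window, would not be seen. A link between the box and the differences was not tested. The Zfp36 stretch covers the 150 bases before the start (chr7:28379229-28379378, reverse strand), and the Egr2 stretch the 30 bases around the box (chr10:67537787-67537816, forward strand). Both run from 5′ to 3′ along the gene, and capitals mark the CArG box.
Zfp36: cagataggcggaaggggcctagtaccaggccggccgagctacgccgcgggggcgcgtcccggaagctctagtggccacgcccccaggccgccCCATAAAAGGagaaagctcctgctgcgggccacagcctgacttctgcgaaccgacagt
Egr2: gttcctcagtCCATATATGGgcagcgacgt

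The cyclic AMP response element TGACGTCA, a site of CREB and ATF proteins, was present in windows of 4 members, Btg2, Dusp1, Maff and Ppp1r15a. It stands in capitals in the 150 bases before the Dusp1 start (chr17:26508473-26508622, reverse strand) and in the 25 bases before the Ppp1r15a start (chr7:45526269-45526293, reverse strand). Its shorter form TGACG, which overlaps the whole element, is in capitals on either strand, so that some matches read CGTCA, in the 250 bases before the Nr4a1 start (chr15:101266596-101266845, forward strand). In the 150 bases before the Fos start (chr12:85473740-85473889, forward strand), capitals mark the short form and the TATA box.
Dusp1: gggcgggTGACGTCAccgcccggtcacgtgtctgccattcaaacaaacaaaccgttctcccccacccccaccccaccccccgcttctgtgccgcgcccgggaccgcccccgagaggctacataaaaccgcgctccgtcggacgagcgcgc
Ppp1r15a: cccgcctctccggTGACGTCAgcac
Nr4a1: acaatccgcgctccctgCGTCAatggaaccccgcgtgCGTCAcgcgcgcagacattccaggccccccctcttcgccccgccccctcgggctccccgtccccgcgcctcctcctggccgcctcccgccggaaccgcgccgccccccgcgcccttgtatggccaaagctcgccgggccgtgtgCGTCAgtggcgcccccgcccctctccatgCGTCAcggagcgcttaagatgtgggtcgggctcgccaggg
Fos: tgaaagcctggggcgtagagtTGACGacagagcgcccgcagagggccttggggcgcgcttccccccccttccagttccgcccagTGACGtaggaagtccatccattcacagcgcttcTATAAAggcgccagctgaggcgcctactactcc

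The promoters of Hspa1a and Hspa1b, neighbouring genes for near-identical inducible chaperones, are shown because the pair is hard to tell apart by sequence. Over the 150 bases before their starts 149 bases were identical and 1 differed (chr17:34972157-34972306 and chr17:34959239-34959388, reverse strand). Capitals mark a head-to-head pair of heat shock units, GAANNTTC, and the CCAAT box, read here on the other strand.
Hspa1a: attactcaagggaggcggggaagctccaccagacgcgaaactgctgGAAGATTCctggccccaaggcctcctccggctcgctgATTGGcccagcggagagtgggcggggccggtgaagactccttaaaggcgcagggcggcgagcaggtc
Hspa1b: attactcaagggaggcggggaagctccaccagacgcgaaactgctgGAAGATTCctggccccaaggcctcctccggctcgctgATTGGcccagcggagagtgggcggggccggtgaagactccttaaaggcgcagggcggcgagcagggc

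The NF-kB site is shown in capitals for Nfkbia, which read lower on the array labelled KO, and for Ier3, which read higher (chr12:55492648-55492797, reverse strand, and chr17:35821563-35821712, forward strand, each the 150 bases before the start).
Nfkbia: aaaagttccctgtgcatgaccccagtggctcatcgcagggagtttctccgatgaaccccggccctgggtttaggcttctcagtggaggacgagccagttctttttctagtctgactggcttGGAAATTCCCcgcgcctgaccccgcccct
Ier3: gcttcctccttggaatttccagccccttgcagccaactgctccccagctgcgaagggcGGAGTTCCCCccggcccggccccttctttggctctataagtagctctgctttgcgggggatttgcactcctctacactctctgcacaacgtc

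Among all 32851 windows, both strands searched, the CArG box was found in 1.63% and in 5 of the 43 member windows, of which 4 are windows of Egr2 and 3 of those overlap. TGACGTCA was found in 1.79% of all windows and 4 of the 43, and TGACG in 20.8% and 25 of the 43. An NF-kB site was found in 8.46% of all windows and 11 of the 43, and the AP-1 site TGACTCA in 5.20% and 2 of the 43. GAANNTTC was found in 7.86% of all windows and 4 of the 43, and the tail-to-tail pair TTCNNGAA in 8.52% and 1 of the 43. The GC box GGGCGG was found in 35.7% and 32 of the 43, CCAAT in 37.4% and 16 of the 43, and TATAAA in 13.6% and 7 of the 43. All members passed the filter on low values, so shares by gene were also set against the 9887 genes that passed it and had a window. TGACG was found in 59.4% of the 32 members and 33.3% of those genes, TGACGTCA in 12.5% and 3.27%, the CArG box in 6.25% and 1.61%, and an NF-kB site in 34.4% and 11.9%. The GC box was found in 90.6% and 63.7%, TATAAA in 21.9% and 9.66%, CCAAT in 43.8% and 41.8%, and TGACTCA in 6.25% and 4.85%. GAANNTTC was found in 12.5% and 7.05%, and TTCNNGAA in 3.12% and 8.29%. Genes with several windows count once, with a match in any of them. The 19 members with TGACG had a median difference of -0.47 and the 13 without it -0.62, and the 11 members with an NF-kB site had -0.47 and the 21 without it -0.56. These matches describe the letters of these windows, several of which overlap or belong to one gene.

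Members read lower on the array labelled KO as a group, with a median difference of -0.49 on the log2 scale (knockout minus wild type), where the median over the 12516 genes that passed the filter on low values was 0.00. Of the 38 members, all of which passed that filter, 35 read lower and 3 higher, while 49.6% of all genes read lower and 48.9% higher. At least 1.5-fold lower were 15 members, against 2.66% of all genes, and at least 2-fold lower were 3, against 0.336%. None was 1.5-fold higher, against 4.45% of all genes, or 2-fold higher, against 0.927%. The 15 members make up 39.5% of the members and 4.50% of the 333 genes that read 1.5-fold lower, and the 3 members make up 7.14% of the 42 genes that read 2-fold lower. Because members were chosen with earlier results of these data known, these shares describe the list and do not test it. All 38 members lay above the background level on both arrays, taken as the 95th percentile of 1432 olfactory, vomeronasal and taste receptor genes (5.37 on the array labelled WT and 5.31 on that labelled KO). With an offset of 32 added on the linear scale, which damps differences of low values, 9 members and 0.959% of all genes were at least 1.5-fold lower. In 1 member, Csrnp1, both values were within 0.05 of that level.

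**Figure D1:**
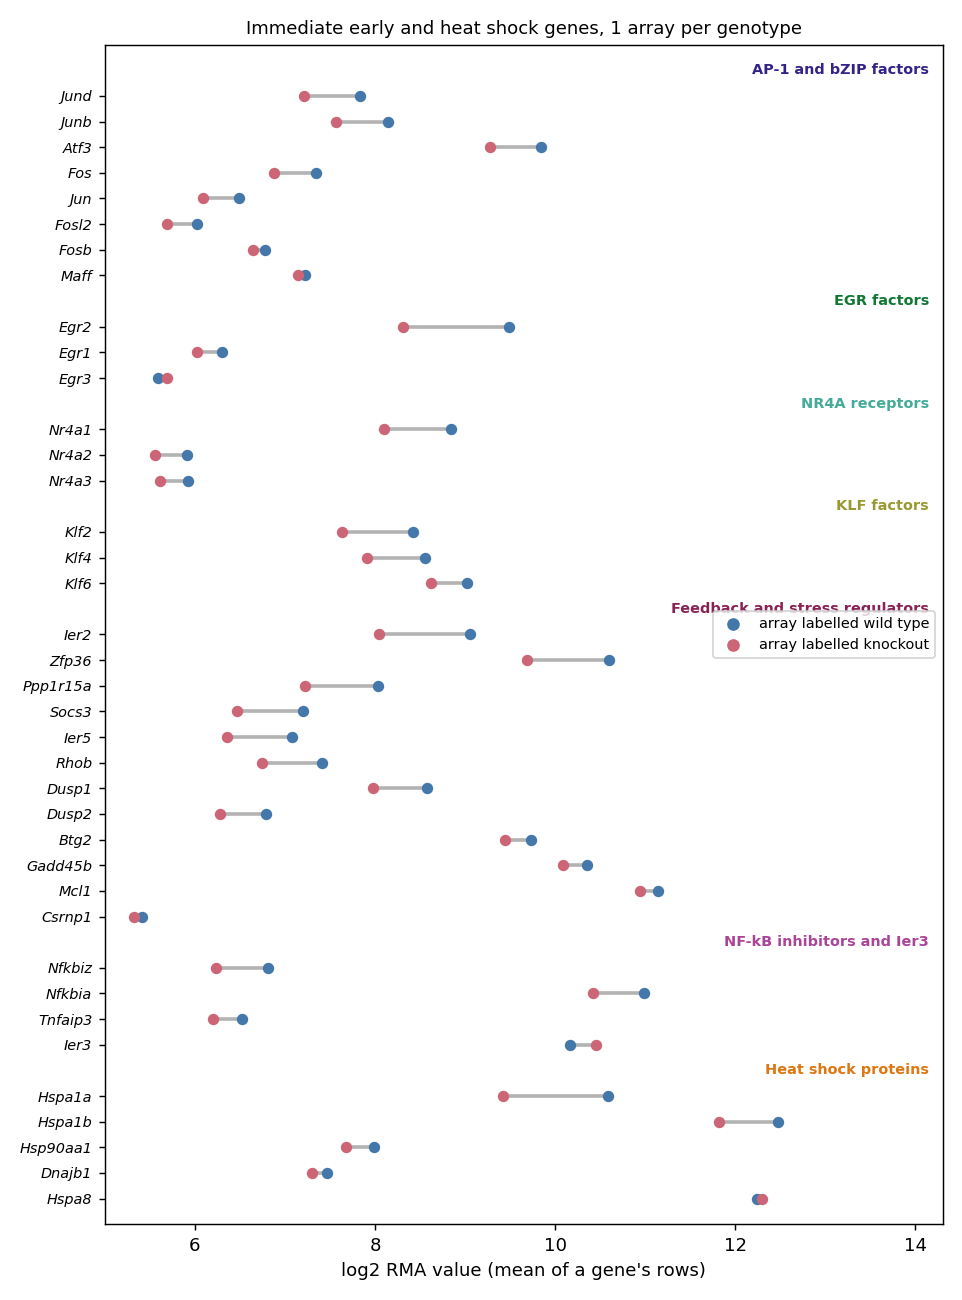
Log2 RMA value of each of the 38 members on the arrays labelled wild type (blue) and knockout (red), grouped by role; a line joins the 2 values of a gene, and values of different genes are not on a common scale of abundance. The red point lies to the left of the blue point for 35 members, and to the right for Egr3, Ier3 and Hspa8.

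Pikfyve and markers of the sorted cells were read before the single members. Pikfyve itself read 5.68 on the array labelled WT and 5.95 on that labelled KO, so it was not lower there, and the position of its probes relative to the deleted exons is not known here, so this row does not check the labels. All 14 measured alveolar macrophage markers lay above background on both arrays, with a summed linear signal of 46323 and 51271. Of these, 4 were at least 1.5-fold lower (Krt79 at -0.98, Siglecf at -0.73, Lpl at -0.72 and Cidec at -0.59) and 2 at least 1.5-fold higher (Ctsk at 1.32 and Fabp4 at 0.62). Over all genes the shares were 2.66% and 4.45%. Of the genes behind the sort, Itgax (CD11c) read 10.03 and 10.39, and Siglecf read 9.27 and 8.54. Markers of other cells differed between the arrays in both directions. The summed linear signal of 9 monocyte markers was 1678 and 1133, with 8 above background on each array and Vcan below it on both. For 10 neutrophil markers, all above background on both arrays, it was 7028 and 9678. For 8 interstitial macrophage markers it was 982 and 1735 (7 and 8 above background) and for 7 T and NK cell markers 629 and 961 (4 and 5, Cd8a and Klrb1c below on both). The 9 epithelial markers, of which 7 lay above background on each array and Foxj1 and Sftpb below on both, summed to 6353 and 8274. Of them Scgb1a1 differed by 0.14, while Epcam was 3.98-fold lower, Bpifa1 5.53-fold higher and Scgb3a1 2.77-fold higher. It was 314 and 407 for 4 dendritic cell markers (3 on each, Zbtb46 below on both), 324 and 319 for 3 B cell markers, all above background, and 144 and 131 for 4 endothelial markers (1 on each; Cdh5, Cldn5 and Kdr below on both). The part of these cells in the member values was not tested, and in sorted bulk cells fewer cells of a type and less RNA per cell cannot be told apart.

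AP-1 is a dimer of a Fos and a Jun protein, and all 8 genes of the AP-1 and related leucine zipper group read lower on the array labelled KO, with a median difference of -0.44. Junb, the Jun family member that also restrains Jun activity, read 8.15 on the array labelled WT and 7.56 on that labelled KO, a difference just past 1.5-fold. The stress-induced repressor and activator Atf3 read 9.84 and 9.28. Fos read 7.34 and 6.88, and Jun 6.49 and 6.08, so the gene pair of the classical dimer differed by -0.47 and -0.41. Each of these was larger than 1 local spread, the scaled median absolute deviation of the differences among genes of like level. Differences were set against this spread from 0, not from the median of those genes. Fosl2 read 6.02 and 5.69. Fosb and Maff were nearly level. Fosb read 6.78 and 6.65, and the small Maf gene Maff 7.22 and 7.14.

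Jund, whose product is the most constitutively expressed of the Jun proteins, has 2 rows that differ by unequal amounts. One read 8.52 on the array labelled WT and 7.50 on that labelled KO, and the other 7.14 and 6.92. Their mean differed by -0.62, while the rows alone gave -1.02 and -0.22, so the call at 1.5-fold rests on the first row.

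EGR genes encode zinc finger transcription factors, and their differences were unequal. Egr2, which marks activated and differentiating macrophages, had the most negative difference of all members, at 9.49 and 8.31, a 2.26-fold difference that placed it 24th from the lowest among the 12516 genes. Egr1, the best known of the family, read 6.30 and 6.03. Egr3 read 5.59 and 5.69, one of the 3 members that were higher on the array labelled KO. Its difference was 0.35 local spreads, at a level close to background.

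The NR4A genes, which encode orphan nuclear receptors induced by calcium and inflammatory signals, all read lower. Nr4a1 read 8.84 on the array labelled WT and 8.10 on that labelled KO (1.66-fold). Nr4a2 read 5.92 and 5.56, and Nr4a3 5.92 and 5.61. Nr4a1 is also required for patrolling monocytes, so monocyte markers were read beside it. Their list does not separate patrolling from other monocytes. Of the 8 monocyte markers that passed the filter, 5 read lower and 3 higher. At least 1.5-fold lower were 4, against 2.66% of all genes, and none was 1.5-fold higher. The 3 at least 2-fold lower were Fn1, Ms4a4c and Plac8, with differences of -1.54, -1.33 and -1.02. Treml4, Spn and Cx3cr1 read higher, with differences of 0.10, 0.11 and 0.25. The part of monocytes in the member values was not tested.

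All 3 KLF genes read lower too, with a median of -0.64. Klf2, whose product restrains inflammatory activation of myeloid cells, read 8.42 and 7.63 (1.73-fold). Klf4, linked to alternative macrophage activation, read 8.55 and 7.91 (1.56-fold). Klf6 read 9.02 and 8.62, a difference of -0.40.

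**Figure D2:**
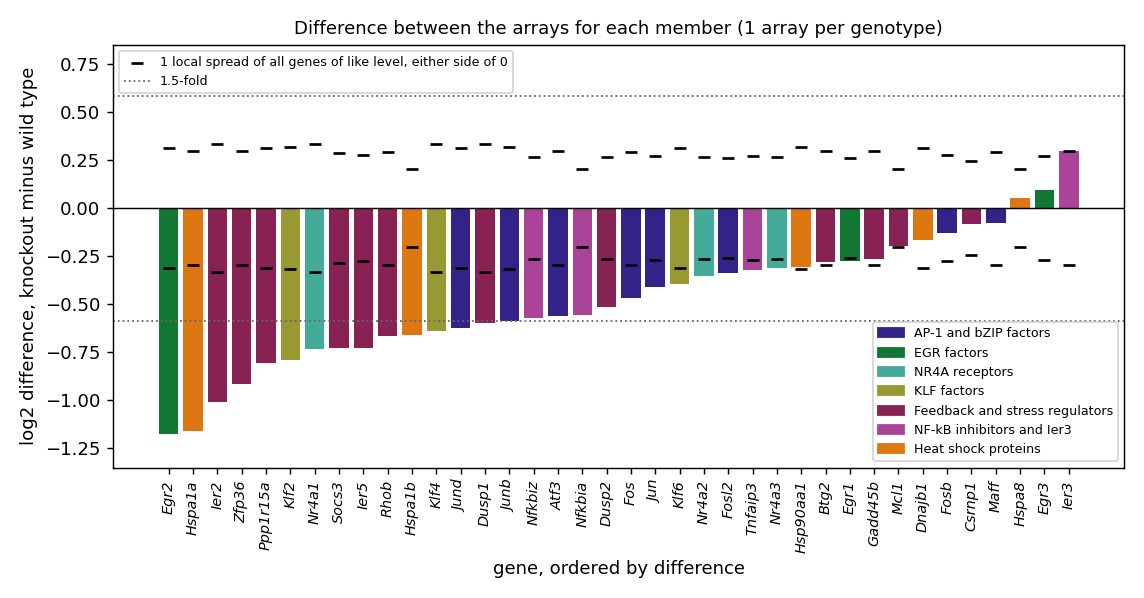
Difference between the arrays (knockout minus wild type, log2) for each member, ordered and coloured by role; black dashes mark 1 local spread on either side of 0 and dotted lines mark 1.5-fold. The bars run from -1.18 for Egr2 to 0.30 for Ier3, and 15 bars reach the lower dotted line.

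The largest role group holds 12 feedback, growth arrest and stress regulators. Each of them read lower on the array labelled KO, against 49.6% of all genes, with a median of -0.63. Past 1.5-fold were 7 of them, against 2.66% of all genes. Ier2, a nuclear protein of the first transcriptional wave, read 9.05 and 8.04 (2.01-fold), a difference that was just under 2-fold with median centring and -0.93 on the log2 scale with the offset of 32. Zfp36, which encodes tristetraprolin, the protein that binds AU-rich elements and destabilises cytokine mRNAs such as that of Tnf, read 10.60 and 9.68 (1.89-fold). Ppp1r15a, the stress-induced subunit that directs dephosphorylation of translation factor eIF2 alpha, read 8.03 and 7.22 (1.75-fold).

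Other stress and signalling genes of the same group followed in size. Ier5, which acts with heat shock factor, read 7.08 and 6.35 (1.66-fold), and the small GTPase gene Rhob 7.41 and 6.75 (1.58-fold). Dusp1, the phosphatase of p38 and JNK kinases, read 8.58 and 7.98 (1.51-fold). The related Dusp2 read 6.79 and 6.28, below 1.5-fold.

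Socs3, the inhibitor of cytokine receptor signalling, has 2 rows that disagree in size. One read 8.73 on the array labelled WT and 7.45 on that labelled KO, a difference of -1.28, and the other 5.67 and 5.48, a difference of -0.18, close to background. Averaged, Socs3 differed by -0.73, and as for Jund the call at 1.5-fold rests on 1 row.

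Smaller differences were found for the growth arrest and survival genes. The antiproliferative gene Btg2 read 9.73 and 9.45. Gadd45b, which acts on stress kinases, read 10.36 and 10.09. Mcl1, a survival gene of the BCL2 family with a short-lived mRNA, read 12.13 and 11.97 in one row and 10.15 and 9.92 in the other. Csrnp1, a nuclear factor induced by cytokines, read 5.41 and 5.32. The differences of these 4 genes were all smaller than 1 local spread.

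**Figure D3:**
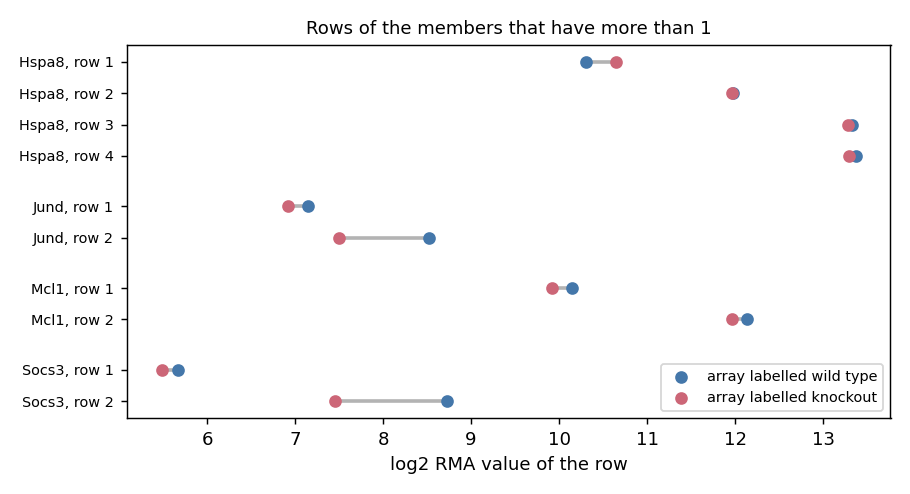
Log2 RMA value of each row of the 4 members with more than 1 row, on the arrays labelled wild type (blue) and knockout (red), rows ordered by level within a gene. The 2 rows of Jund and of Socs3 differ between the arrays by unequal amounts, and 3 of the 4 rows of Hspa8 are nearly level.

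Of the 4 genes grouped as NF-kB feedback genes, Nfkbia, Nfkbiz and Tnfaip3 read lower, without reaching 1.5-fold. Nfkbia, which encodes the inhibitor that holds NF-kB in the cytoplasm and is itself a target of it, read 10.98 and 10.42, a difference of -0.56 that is 2.75 local spreads in size. Nfkbiz, a nuclear coregulator of NF-kB at secondary response genes, read 6.81 and 6.24 (1.49-fold). Tnfaip3, which encodes a ubiquitin-editing enzyme that ends NF-kB signalling, read 6.52 and 6.20. Ier3, a stress-inducible survival gene, went the other way, at 10.16 and 10.46. Its difference of 0.30 was the most positive of all members, and 1.01 local spreads from 0. With loess centring Ier3 differed by 0.18, less than its local spread of 0.30.

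Heat shock members split by gene. Hspa1a, an inducible cytosolic chaperone, read 10.58 on the array labelled WT and 9.43 on that labelled KO (2.23-fold), and its neighbour Hspa1b 12.48 and 11.82 (1.58-fold). The coding sequences of these genes are close to identical, so their rows may share signal and are not independent of each other. Hsp90aa1, the inducible cytosolic Hsp90 gene, read 7.98 and 7.68, and Dnajb1, the cochaperone that loads clients onto Hsp70 proteins, 7.46 and 7.30. Both were within 1 local spread of 0. With loess centring Hsp90aa1 differed by -0.36, past its local spread of 0.32, and Dnajb1 by -0.19, within its own.

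Hspa8, the constitutive relative of Hspa1a, was nearly level. Of its 4 rows, the highest read 13.37 and 13.29, and 3 differed by -0.08, -0.05 and -0.01. The remaining row read 10.31 and 10.65, and the mean of all 4 differed by 0.05, with values from -0.08 to 0.06 over other filters, scalings and row choices. Processed copies of this gene are common in mammalian genomes, so its rows may read more than 1 locus. A further 2 rows of the table list a member together with another symbol and were left out.

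Spread over the whole group, 28 of the 38 differences were larger than 1 local spread, as were those of 34.6% of all genes, and 13 were larger than 2 local spreads, as were those of 8.38% of all genes. Of the 28, 27 were lower and Ier3 was higher, and all 13 were lower. These counts were taken from 0. Against the same spreads, Ier3, Egr1 and Nr4a3 fell below 1 local spread with loess centring. Btg2, Gadd45b, Mcl1 and Hsp90aa1 rose above it. The local spread ranged from 0.20 to 0.33 and contains noise and any real differences together. Differences also depended on level across all genes. The median over all genes was -0.06 in the lowest decile by level and 0.13 in the highest decile. The 10 members in the highest decile had a median of -0.42, with Ier3 and Hspa8 the 2 of them that read higher. The 6 members in the next decile all read lower, with a median of -0.69 against 0.09 for all genes there.

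**Figure D4:**
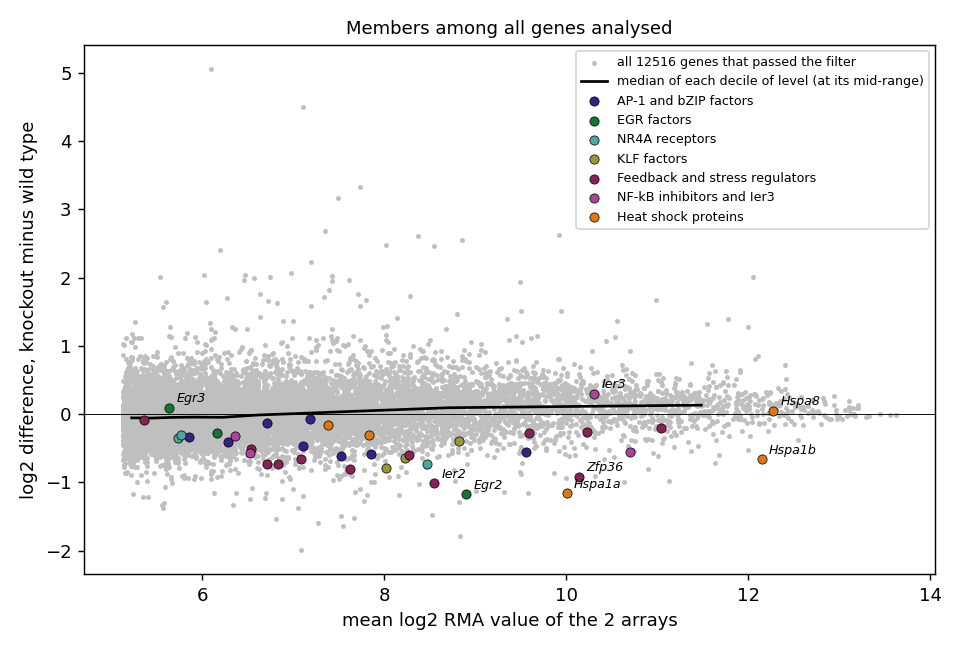
Difference between the arrays (knockout minus wild type, log2) against the mean log2 RMA value of the 2 arrays for the 12516 genes that passed the filter (grey), with the members coloured by role and the median of each decile of genes by level as a line. Members lie below the line except Ier3 and Egr3, and Egr2, Hspa1a and Ier2 are at least 2-fold lower.

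Members are compact genes, which the choice by symbol did not use. Their median span from first to last base, introns included, was 4092.5 bp in RefSeq (GRCm38.p6), from 1199 bp for Ier3 to 41370 bp for Nr4a3, against 18872 bp for the 12429 genes that passed the filter and had a length. The 22 members of up to 5000 bp had a median difference of -0.59 and the 16 longer ones -0.33. Among the 2168 other genes of up to 5000 bp the median was 0.02, and 3.92% were at least 1.5-fold lower.

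Related genes outside the member list were read in the same way, with lists that were likewise drawn up after earlier results of these arrays. Over all genes that passed the filter, 49.6% read lower, 2.66% at least 1.5-fold lower and 4.45% at least 1.5-fold higher. Of 16 other early transcription factor genes that passed the filter (of 18 measured), 14 read lower, of which 2 passed 1.5-fold, and no gene passed it upwards, with a median of -0.19. Myc, the growth regulator, read 7.87 and 7.12, Id3 8.28 and 7.67, Id1 9.55 and 9.06, and the EGR corepressor gene Nab2 6.57 and 6.13. Of 25 other early signalling genes (of 27 measured), 17 read lower, 3 by at least 1.5-fold and none 1.5-fold higher. Their median was -0.06, and it ranged from -0.27 to -0.04 over other filters, scalings and row choices. The kinase gene Plk3 read 8.25 and 7.11 (2.20-fold), Phlda1 8.34 and 7.46, Trib1 7.25 and 6.54, and the ERK phosphatase gene Dusp6 10.74 and 10.21.

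Inflammatory primary response genes, which share inducing signals with the members, read lower in 25 of 31 cases (of 34 measured), with a median of -0.32. At least 1.5-fold lower were 8 and at least 2-fold lower 4, against 2.66% and 0.336% of all genes. None was 1.5-fold higher, against 4.45% of all genes. The 4 past 2-fold were the cytokine gene Tnf, at 9.73 and 7.94, and the chemokine genes Cxcl3 (8.75 and 7.57), Cxcl2 (a difference of -1.16) and Ccl2 (9.88 and 8.74). Tnf and Cxcl2 mRNAs are known targets of tristetraprolin, the product of Zfp36. Zfp36 itself also read lower, at 10.60 and 9.68, and a link between these values was not tested.

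Genes of the pathways upstream read in both directions. Of 23 regulators that passed the filter (of 25 measured), 16 read lower and 7 higher, against 49.6% and 48.9% of all genes, with a median of -0.17. The p38 kinase activator gene Map2k3 read 8.23 and 7.63. It was the only 1 of the regulators past 1.5-fold lower, against 2.66% of all genes. Mapkapk2, the kinase downstream of p38, read 8.53 and 7.97. The p38 kinase gene Mapk14 read 6.11 and 6.57, and the serum response factor partner gene Elk3 7.87 and 7.44.

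Other chaperone genes were split evenly. Of 29 that passed the filter (of 33 measured), 15 read lower and 14 higher, against 49.6% and 48.9% of all genes. Their median was -0.01, and it ranged from -0.09 to 0.02 over other filters and scalings. The list pools heat-inducible genes with chaperones of the endoplasmic reticulum, so its median does not describe the inducible genes alone. None was 1.5-fold lower, against 2.66% of all genes. Cryab, a small heat shock protein gene, read 6.07 and 6.99, the only 1 of them that was 1.5-fold higher, against 4.45% of all genes. Hspa4l, of the Hsp110 branch, read 6.75 and 6.33, the heat-inducible cochaperone gene Chordc1 7.78 and 8.18, and Dnajc3, of the endoplasmic reticulum, 9.64 and 10.00.

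**Figure D5:**
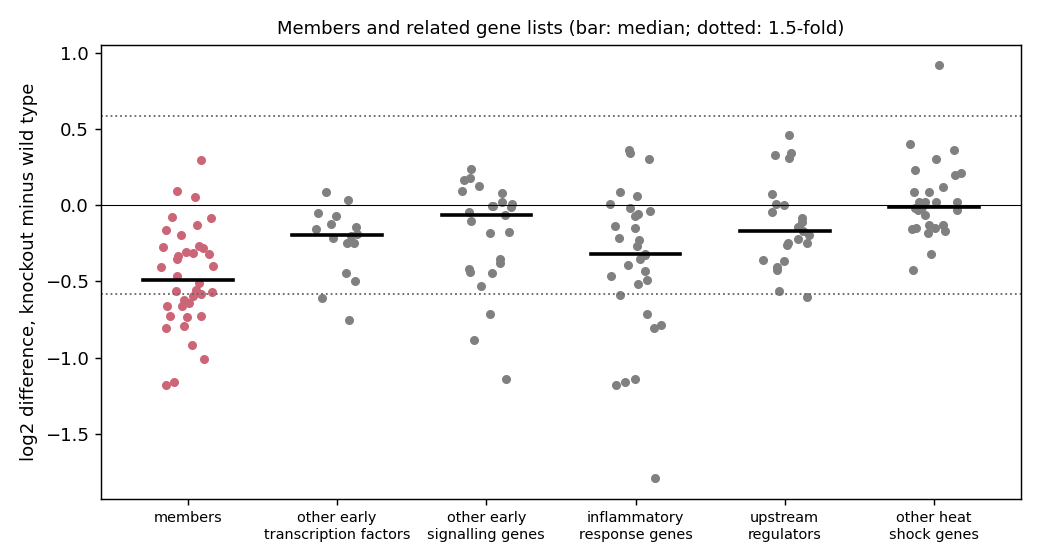
Difference between the arrays (knockout minus wild type, log2) of the members (red) and of 5 lists of related genes (grey) that passed the filter; each point is a gene, thick bars are medians and dotted lines mark 1.5-fold. The medians are -0.49 for the members, -0.19, -0.06, -0.32 and -0.17 for the next 4 lists and -0.01 for other heat shock genes.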

How the data were processed

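The authors deposited log2 values of 41345 rows for 2 arrays, 1 per genotype. Per the submitters' processing notes they used RMA, which subtracts background, forces both arrays onto a shared distribution and combines each row's probes, so global differences are removed and large folds are compressed. The RMA version and genome build are not known here, and log2 is inferred from RMA and from the values (0.77 to 13.86). Rows with 1 symbol in the platform's annotation (23521) were averaged per gene. Genes entered the comparison at a mean of both arrays of at least 5.13, the median of all rows. With 1 array per genotype no test was run: differences are knockout minus wild type, and a call means past 1.5-fold or 2-fold. Alternatives changed the filter, the scaling (median, quantile or loess with span 0.3), the offset, the row taken per gene, the fold and the members included. Local spreads come from 20 bins of level. The code was checked on simulated data (Python 3.11.15, pandas 2.3.3, statsmodels 0.14.6). Members, lists, roles and thresholds were chosen with earlier results of these data known. Every member is named, and of each related list the 4 genes that differed most. The number of arrays limits the precision.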

Additional observations from a re-analysis of the deposited data

How the results depend on the processing

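The direction of the members as a group held under every alternative run. The median of the members ranged from -0.58 to -0.38 over 11 alternatives, and no result changed sign among those called. Hspa8, nearly level, read lower with loess centring (-0.06) and with the highest row per gene (-0.08). The 35 members that read lower did so under each of the 7 changes of filter, scaling and row choice in which they had a value. The count of members at least 1.5-fold lower was 9 with an offset of 32 on the linear scale, where 120 of all genes were lower and 292 higher, and 3 at a fold of 2. The count at 2-fold ranged from 2 with median centring or the offset, where Ier2 was lost, to 5 with the highest row per gene. Without a filter 833 genes were 1.5-fold lower and 969 higher, and a filter at the 75th percentile gave 175 and 371; the change there comes from the genes tested, 22180 and 6297. That stricter filter kept 30 members, 28 of them lower, and only Egr2 of the EGR genes (-1.18) and Nr4a1 of the NR4A genes (-0.73). Taking the row with the highest mean moved Jund to -1.02 and Socs3 to -1.28. Leaving out the 4 members with several rows was chosen after seeing the data. No paired analysis was possible because each genotype has 1 array, and for the same reason no array could be left out. Single differences near 1 local spread are within the scatter of genes of like level, and 1 array per genotype cannot separate animals, sorts or hybridisations from genotype.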
